A study of Mus musculus with 4 samples.

Results

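The genes described are 40 antioxidant and glutathione genes: superoxide dismutases, catalase, glutathione peroxidases, peroxiredoxins, the thioredoxin system, the enzymes that make and recycle glutathione, regulators and targets of the transcription factor NRF2, and oxidases that generate hydrogen peroxide. Glutathione S-transferases were not included. Members were the probe sets of an expression array whose annotation carried a listed symbol and no other. Of the 40 listed genes 34 were found, with 70 probe sets, among 18193 genes so named on the array. The remaining 6 (Prdx1, Prdx5, Prdx6, Ftl1, Duox2 and Nox1) had no probe set annotated to them alone and are not analysed here as genes.

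The RNA came from Paneth cells, the antimicrobial secretory cells of the small intestinal crypt, cut from mouse tissue by laser capture. The arrays hold 2 samples of Atg16 hypomorph mice, which carry an Atg16 allele of reduced function, and 2 samples of wildtype mice, all of a mixed C57BL/6 and 129ola strain. Age, treatment, the nature of the allele and the number of animals are not given in the labels, and the spread behind each p-value is that between the arrays of a group, which may be technical rather than between animals. All levels are the deposited linear intensities of single probe sets, and each difference is the hypomorph mean less the wildtype mean of log2(intensity + 32), a scale that makes changes of dim probe sets look smaller.

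Cells turn superoxide into hydrogen peroxide with superoxide dismutases, and remove the peroxide with catalase, glutathione peroxidases and peroxiredoxins. The peroxidases are recharged by glutathione and thioredoxin, which glutathione reductase and thioredoxin reductases restore with NADPH. NRF2, encoded by Nfe2l2, binds antioxidant response elements in many of these genes. KEAP1 holds it in check, and the autophagy receptor p62 can sequester KEAP1.

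Atg16l1, the gene altered in the mutant, read 966 and 995 in hypomorph and 1335 and 1183 in wildtype (difference -0.35, adjusted p = 0.102). The labels do not place its probe set with respect to the allele, so this checks the labels only in part. The 9 Paneth cell markers on the array, among them the lysozyme gene Lyz1, all passed the brightness filter, and their summed intensity was 68902 to 74099 on hypomorph arrays and 71271 to 72220 on wildtype arrays, with 1 marker, Reg3g, called higher. Markers of other cells differed. All 9 tested of 13 fat cell markers were called higher in hypomorph (summed intensity 32995 to 33145 against 10209 to 10355 in wildtype), and 10 of 14 tested of 17 enterocyte markers were called higher (41293 to 43221 against 29694 to 30421). The fat cell markers Lipe, Aqp7, Pck1 and Retn and the enterocyte markers Rbp2, Treh and Anpep were too dim to test. Cidec and Lep of the fat cell markers and Lct of the enterocyte markers passed the filter only through the hypomorph arrays, where they were high, and without them the counts were 7 of 7 and 9 of 13. Of 9 enteroendocrine markers 4 were called lower in hypomorph (Chgb, Gcg, Gip and Tac1, summed intensity of the list 9213 to 9661 against 12061 to 12899). Of 9 fibroblast markers 4 were called higher (29479 to 30483 against 25683 to 25791), as were Gzma and Gzmb among 7 tested T and NK cell markers. Of 9 tested macrophage markers 1, Cd163, was called higher, and 4 had negative differences (median 0.043). No neutrophil or red blood cell marker passed the filter. Xist, which coats the silenced X chromosome of female cells, averaged 4462 ± 67.9 on hypomorph arrays, against 21.8 ± 5.36 on wildtype arrays (SD, n = 2 each). The arrays thus split by this mark of female cells exactly as they do by genotype. For every gene described here, a difference that goes with sex cannot be told apart from one that goes with genotype.

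By their brightest probe set 23 of 32 antioxidant genes differed by less than 0.25 between hypomorph and wildtype Paneth cells. Of the 34 genes 32 passed the brightness filter, which kept the brighter part of all probe sets. Of these 32 genes 2 (6.25%) were called higher at an adjusted p under 0.05, catalase (Cat) and the DUOX2 maturation factor Duoxa2, both on chromosome 2, beside 2.53% of all 11577 genes tested. None was called lower, beside 1.70% of all genes (limma), and at an unadjusted p under 0.05 there were 6 higher and 2 lower members, which is 25% of the 32 beside 21.7% of all genes. The median difference of the members was 0.028, and that of all tested genes -0.024. For 24 of the 32 genes the 95% interval of the difference lay inside -0.5 to 0.5. Shares over all genes are not given for this count or for the 23 within 0.25. Neither count is read as particular to these genes. The groups did not overlap for 12 members that were higher (37.5%, beside 23.4% of all genes) and for 5 that were lower (15.6%, beside 30.0%). In bulk samples of this kind, fewer cells of a type and less RNA per cell cannot be told apart.

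Counted by probe set, 56 of the 70 were tested. Here 2 (3.57%) were called higher beside 2.04% of all 22519 tested, and 3 (5.36%) were called lower beside 1.67%. Probe sets of Gsr (called lower) and Txnrd2 (not called) passed the filter only through the wildtype arrays, where they were high. Without them 2 of 54 were called lower, and nothing is read from these shares. The 3 lower ones were second, dimmer probe sets of the glutathione reductase gene Gsr, of Nfe2l2 and of the glutamate-cysteine ligase gene Gclc. The brightest probe set of each of these genes was not called, and for 7 of the 16 members with more than 1 tested probe set the tested probe sets differed in sign.

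**Figure D1:**
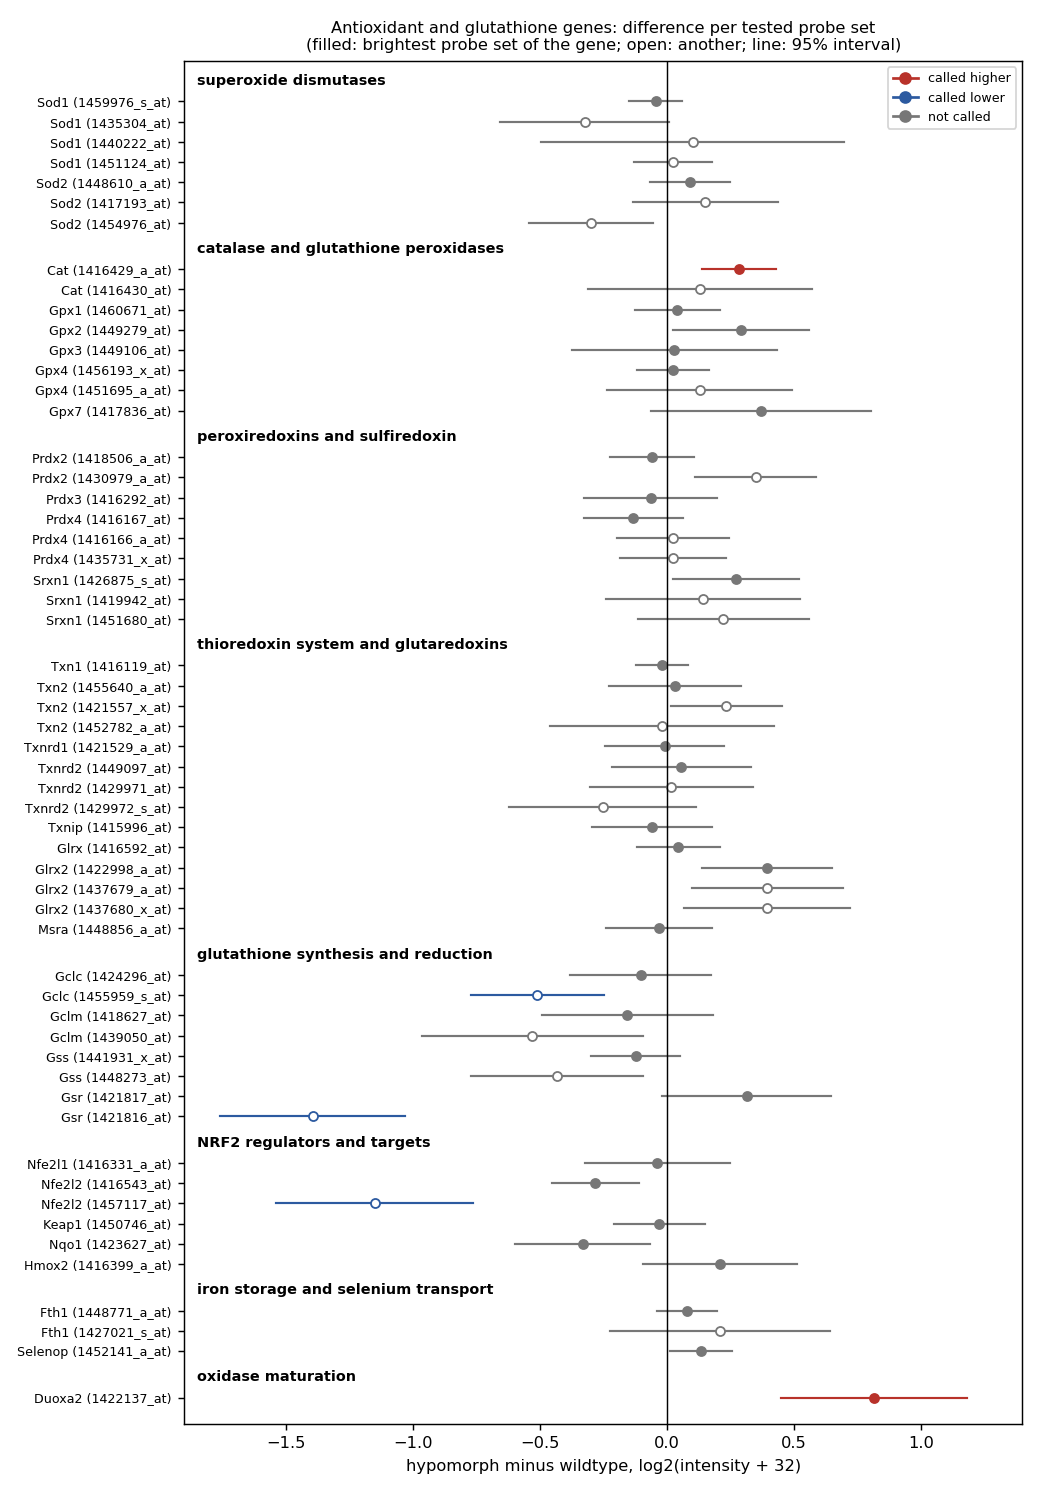
Difference (hypomorph minus wildtype, log2(intensity + 32)) of each of the 56 tested probe sets, grouped by role, with its 95% interval. Most points lie near 0, the second probe sets of Gsr (-1.39) and Nfe2l2 (-1.15) lie farthest to the left, and Duoxa2 (0.82) farthest to the right.

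Catalase, the peroxisomal enzyme that splits hydrogen peroxide into water and oxygen, read 4616 and 4456 in hypomorph and 3669 and 3776 in wildtype. The groups did not overlap, and the ratio of the means was 1.22 (difference 0.28, SE 0.065, adjusted p = 0.0452). Its second probe set read 113 and 158 in hypomorph and 102 and 140 in wildtype, with overlapping groups (difference 0.13, adjusted p = 0.757). The call of Cat was lost without hypomorph replicate 1 (adjusted p = 0.111), wildtype replicate 1 (0.233) or wildtype replicate 2 (0.169). It was also lost with median centring (adjusted p = 0.0539), with no intensity trend (0.221), with no brightness filter (0.136) and with the mean of the probe sets (0.305). Fat cells and enterocytes also express catalase, and their markers rose in the same arrays. Their part in this result was not tested.

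Duoxa2 encodes the factor that brings the hydrogen peroxide producing oxidase DUOX2 to the surface of gut epithelium. It was at 124 and 137 in hypomorph and at 64.0 and 56.4 in wildtype. Both hypomorph arrays stood above both wildtype arrays, with a ratio of means of 2.17 (difference 0.82, SE 0.164, 95% interval 0.45 to 1.18, adjusted p = 0.0263). It is a single, dim probe set, and DUOX2 itself is not analysed here. The call was lost without wildtype replicate 1 (adjusted p = 0.0789), without wildtype replicate 2 (0.16) and with no brightness filter (0.116). The rise of 9 of 13 enterocyte markers stands beside it, leaving out Lct, which passed the filter only through the hypomorph arrays. The part of this rise was not tested. Of the 40 tested genes nearest to Duoxa2 on chromosome 2, 4 were called, 1 higher and 3 lower, beside 4.23% of all tested genes. The part of this region in the difference of Duoxa2 was not tested either.

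The glutathione peroxidases reduce peroxides with glutathione. All 8 tested probe sets of catalase and this family had a positive difference, of 0.03 to 0.37, and the groups did not overlap for 4 of them. Non-overlap with hypomorph higher was found for 21.8% of all probe sets. Of all 11577 tested genes 5187 had a positive difference by brightest probe set. The 8 probe sets belong to 6 genes, and probe sets of the same gene are not replicates. Nothing is read from these counts. Gpx2, the form typical of gut epithelium, read 1494 and 1233 in hypomorph and 1034 and 1176 in wildtype. The lowest hypomorph array lay just above the highest wildtype array, and the difference of 0.29 was not called (SE 0.119, adjusted p = 0.205). Gpx7, a form of the endoplasmic reticulum, read 113 and 168 against 90.7 and 110 in wildtype (0.37, adjusted p = 0.315).

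Gpx1, the common cytosolic form, was at 5392 and 6247 in hypomorph and 5747 and 5527 in wildtype, with overlapping groups. Gpx4, which reduces lipid peroxides in membranes and protects cells from ferroptosis, was at 7637 and 7698 in hypomorph and 7982 and 7103 in wildtype. Its difference was 0.03 with a 95% interval of -0.12 to 0.17. The secreted form Gpx3 also overlapped, at 155 and 209 in hypomorph and 160 and 192 in wildtype.

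The superoxide dismutases were not called. Sod1, the cytosolic copper and zinc enzyme, read 9992 and 9774 in hypomorph and 10139 and 10237 in wildtype, a difference of -0.04 (95% interval -0.15 to 0.06). Its other tested probe sets gave 0.02, -0.32 and 0.10. Sod2, the mitochondrial manganese enzyme, was at 3647 and 3421 in hypomorph and 3302 and 3323 in wildtype by its brightest probe set (difference 0.09, adjusted p = 0.50). Another of its probe sets went the other way, at 836 and 912 in hypomorph and 1029 and 1133 in wildtype (difference -0.30, adjusted p = 0.165). Sod3, the extracellular form, was too dim to test, with no value above 26.6 on any array.

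Peroxiredoxins use a reactive cysteine to reduce peroxides, and sulfiredoxin (Srxn1) repairs that cysteine when it is overoxidised. None was called. Prdx2 read 4256 and 4624 in hypomorph and 4400 and 4858 in wildtype by its brightest probe set (difference -0.06), while a second probe set read 1376 and 1600 against 1203 and 1114 (difference 0.35, adjusted p = 0.106). The mitochondrial Prdx3 overlapped, at 1012 and 1081 in hypomorph and 993 and 1205 in wildtype. Prdx4, the X-linked form of the endoplasmic reticulum, was at 1775 and 1945 against 2066 and 2013 in wildtype (difference -0.13, adjusted p = 0.426), and its other tested probe sets gave 0.03 each. The groups differ in Xist, which cannot be told apart from genotype for this X-linked gene or for any other gene here. Its part was not tested. Srxn1 was at 825 and 817 in hypomorph and 652 and 697 in wildtype. Its groups did not overlap by this probe set. The 3 tested probe sets gave 0.27, 0.22 and 0.14, with adjusted p-values of 0.205, 0.435 and 0.68, and the dimmest overlapped.

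No member of the thioredoxin system was called. Txn1, cytosolic thioredoxin, read 11298 and 11625 in hypomorph and 11750 and 11471 in wildtype. Its difference was -0.02 with a 95% interval of -0.12 to 0.08. The cytosolic reductase Txnrd1 was at 1480 and 1727 in hypomorph and 1525 and 1693 in wildtype (difference -0.01, interval -0.24 to 0.23), and the mitochondrial reductase Txnrd2 at 507 and 509 against 494 and 480 (0.06). Txnip, the thioredoxin inhibitor that responds to glucose, was at 4081 and 5121 against 4436 and 5117, with a wider spread within each group than between them. The mitochondrial thioredoxin Txn2 gave 0.03 by its brightest probe set and 0.23 by another (adjusted p = 0.215). Msra, which repairs oxidised methionine, overlapped between groups (difference -0.03).

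Glutaredoxins undo the coupling of glutathione to proteins. Glrx, the cytosolic form, overlapped at 3297 and 3471 in hypomorph and 3391 and 3170 in wildtype. Glrx2, the mitochondrial and nuclear form, was at 803 and 769 in hypomorph and 604 and 577 in wildtype. Its 3 probe sets gave differences of 0.39, 0.40 and 0.40, and none of them overlapped between groups. None was called (adjusted p = 0.0907, 0.135 and 0.171), and probe sets of the same gene are not replicates.

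No gene of glutathione synthesis or reduction was called by its brightest probe set. Among the 8 tested probe sets of these 4 genes 7 had a negative difference, and 5 did not overlap with hypomorph lower (beside 29.9% of all probe sets). Of the 8, 2 were called lower (beside 1.67% of all probe sets). Each of these counts includes the Gsr probe set that passed the filter through wildtype alone. Probe sets of the same gene are not replicates, and nothing is read from these counts. By brightest probe set only Gss did not overlap with hypomorph lower. Gclc, the catalytic subunit of the rate-limiting ligase, was at 1231 and 1198 in hypomorph and 1147 and 1487 in wildtype by its brightest probe set, with overlapping groups (difference -0.10, adjusted p = 0.688). Its second probe set fell to 731 and 879 in hypomorph, against 1157 and 1153 in wildtype (difference -0.51, SE 0.117, adjusted p = 0.0442). That call was lost without hypomorph replicate 1 (adjusted p = 0.157), wildtype replicate 1 (0.127) or wildtype replicate 2 (0.135), with no brightness filter (0.136) and with no intensity trend (0.127).

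Gclm, the modifier subunit, showed the same split without a call. Its brightest probe set read 406 and 318 in hypomorph and 392 and 415 in wildtype (difference -0.16), and the dimmer one 118 and 176 against 200 and 247 (difference -0.53, adjusted p = 0.165). Gss, the synthetase that completes glutathione, was lower on both hypomorph arrays by either probe set. It read 2295 and 2432 in hypomorph and 2614 and 2537 in wildtype (difference -0.12), and 338 and 418 against 475 and 566 by the dimmer one (difference -0.43, adjusted p = 0.148).

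Gsr, which regenerates reduced glutathione, went in opposite directions by probe set. The brighter one read 309 and 358 in hypomorph and 275 and 248 in wildtype (difference 0.32, adjusted p = 0.266). The dimmer one fell to 21.6 and 19.4 in hypomorph, against 109 and 103 in wildtype, a ratio of 5.17 in favour of wildtype (difference -1.39, SE 0.163, adjusted p = 0.00132). This dimmer probe set passed the filter only through its wildtype arrays, and with a pseudocount of 1 it was not tested. Fits that left out 1 array kept the filter set on all arrays. They therefore cannot show whether its call would hold without a wildtype array. With the mean of both probe sets Gsr was called lower (difference -0.54, adjusted p = 0.0271), the opposite direction to its brightest probe set. Probe positions in the transcripts were not used here.

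**Figure D2:**
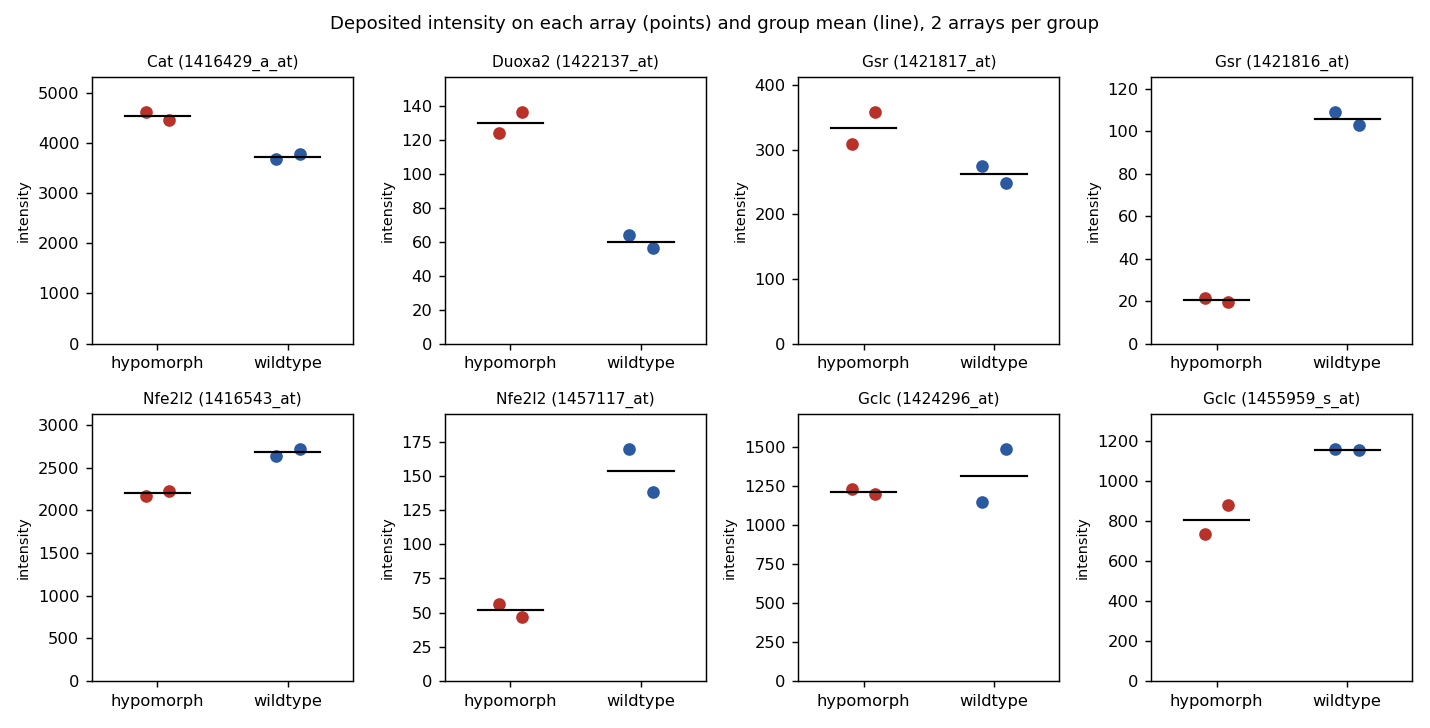
Deposited intensity (linear axis from 0) on each array, hypomorph left and wildtype right, with the mean of each group as a line. Cat and Duoxa2 were higher on both hypomorph arrays, and the second probe sets of Gsr, Nfe2l2 and Gclc were lower on both, while the brightest probe sets of Gsr and Gclc do not follow them.

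Nfe2l2 itself was lower on both hypomorph arrays by either probe set. The brightest read 2167 and 2228 in hypomorph and 2640 and 2715 in wildtype, a difference of -0.28 that missed the threshold (SE 0.077, adjusted p = 0.0764). The second fell to 56.6 and 46.6 in hypomorph, against 170 and 138 in wildtype (difference -1.15, SE 0.174, adjusted p = 0.006). The call of the second probe set held when any 1 array was left out and was lost with no brightness filter (adjusted p = 0.053). With the mean of both probe sets the gene was called lower (difference -0.72, adjusted p = 0.00621).

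Of the 6 tested probe sets of NRF2 regulators and targets 5 had a negative difference and 1, of Hmox2, a positive one. The negative ones were both probe sets of Nfe2l2 and those of Nqo1, Keap1 and Nfe2l1. Keap1 and Nfe2l1 lay near 0 with overlapping groups. Of all 11577 tested genes 5187 had a positive difference by brightest probe set. Known NRF2 targets placed under other roles are not counted here, among them Srxn1 (positive) and Gclm (negative). Nqo1, a quinone reductase and a classical NRF2 target, was at 531 and 589 in hypomorph and 708 and 716 in wildtype. Its groups did not overlap, and the difference of -0.33 was not called (SE 0.119, adjusted p = 0.156). Keap1 was at 2257 and 2172 in hypomorph and 2310 and 2210 in wildtype (difference -0.03, interval -0.21 to 0.15). Nfe2l1, a related factor that governs proteasome genes, overlapped at 510 and 508 against 489 and 559. Hmox2, the constitutive haem oxygenase, was at 497 and 564 against 424 and 485 (difference 0.21, adjusted p = 0.415). Hmox1, the inducible form and a strong NRF2 target, was too dim to test, at 29.2 and 31.3 in hypomorph and 36.7 and 31.2 in wildtype.

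Antioxidant response element cores were sought as TGACNNNGC and TGAGNNNGC on both strands, in RefSeq promoter windows (build GRCm38.p6) from 250 bases before to 50 after the start site. A window was found for 29 of the 34 genes. Of these 7 (24.1%) held a core of either motif, as did 30.8% of the 27025 genes with a window. The pooled share was no higher among the members. TGACNNNGC was held by 5 members (17.2%, beside 14.0% of genes) and TGAGNNNGC by 3 members (10.3%, beside 19.8% of genes). Counts this small are not read as a difference between the motifs. The 3 windows below belong to the regulator Nfe2l2, to Gclm and to Srxn1. They are examples, shown because Gclm and Srxn1 are known NRF2 targets and each window holds a core. Other member windows with a core are not shown. Capitals mark each core, and sequences run 5′ to 3′ on the strand of the gene.
Nfe2l2, chr2:75704614-75704913, minus strand: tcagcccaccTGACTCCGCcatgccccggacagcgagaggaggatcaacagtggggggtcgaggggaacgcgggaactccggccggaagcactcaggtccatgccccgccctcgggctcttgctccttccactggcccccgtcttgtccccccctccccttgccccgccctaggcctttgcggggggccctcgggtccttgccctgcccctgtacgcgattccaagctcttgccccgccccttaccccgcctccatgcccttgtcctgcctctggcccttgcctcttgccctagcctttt
Gclm, chr3:122245307-122245606, plus strand: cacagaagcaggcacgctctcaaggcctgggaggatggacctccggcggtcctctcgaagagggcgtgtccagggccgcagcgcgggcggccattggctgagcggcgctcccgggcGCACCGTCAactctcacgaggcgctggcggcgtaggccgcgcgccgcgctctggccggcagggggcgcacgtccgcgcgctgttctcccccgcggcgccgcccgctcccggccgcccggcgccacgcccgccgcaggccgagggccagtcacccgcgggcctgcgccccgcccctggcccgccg
Srxn1, chr2:152105274-152105573, plus strand: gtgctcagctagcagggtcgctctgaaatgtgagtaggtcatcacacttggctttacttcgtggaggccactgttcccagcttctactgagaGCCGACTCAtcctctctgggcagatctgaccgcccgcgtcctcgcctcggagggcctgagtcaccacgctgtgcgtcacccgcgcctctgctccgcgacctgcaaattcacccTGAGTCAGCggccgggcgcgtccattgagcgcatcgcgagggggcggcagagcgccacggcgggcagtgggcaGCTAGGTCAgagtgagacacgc
The core of Nfe2l2 began 240 bases before the start site and that of Gclm 134 bases before it. Srxn1 held 3 cores, 158 and 45 bases before the start site and at base 29 of the gene. Txnrd1, Sod1, Txn2 and Nfe2l1, which differed little by their brightest probe sets, each held a core too. The windows of Nqo1, Cat, Duoxa2 and Glrx2 held none. A match is a description of these letters only, and a window without a match says nothing of bases outside it.

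Iron and selenium handling members were also not called. Fth1, the ferritin heavy chain that stores iron in a form that cannot feed radical chemistry, read 9480 and 10130 in hypomorph and 9448 and 9105 in wildtype (difference 0.08, interval -0.04 to 0.20), and 0.21 by a second, dimmer probe set. Selenop (listed as Sepp1), which carries selenium between tissues, was at 8187 and 8648 against 7756 and 7567. Its groups did not overlap, but the difference of 0.13 missed the threshold (SE 0.054, adjusted p = 0.197).

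Of 126 tested genes in 8 lists of related genes 6 (4.76%) were called, 3 higher and 3 lower, beside 4.23% of all tested genes in either direction. The lists as a whole therefore held calls at about the share of all genes, and the 6 are described one by one. With no brightness filter or with no intensity trend only Chac1 and Mt2 of these were called. Of 17 tested other glutathione genes 2 were called higher and 0 lower. Chac1, which breaks glutathione down inside the cell, rose to 1476 and 1761 in hypomorph, against 498 and 545 in wildtype. The ratio of means was 3.10 (difference 1.57, SE 0.12, adjusted p = 7.59e-05), and the call held when any 1 array was left out. Of the 40 tested genes nearest to Chac1 on chromosome 2, 11 were called as well, 7 higher and 4 lower, and the part of this region in its difference was not tested. Hagh, the glyoxalase that releases glutathione from its lactoyl form, rose to 1736 and 1752, against 1366 and 1255 in wildtype (0.40, SE 0.092, adjusted p = 0.0439). The call of Hagh was lost without each array in turn (adjusted p = 0.062 to 0.24), and its other probe sets gave 0.50 and 0.19.

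Of 14 tested NADPH supply genes 1 was called higher and 0 lower, with a median of -0.004. It was Me1, the malic enzyme that feeds NADPH to fatty acid synthesis, at 127.9 and 111 in hypomorph and 62.8 and 57.5 in wildtype (0.71, SE 0.165, adjusted p = 0.0458). The call was kept without hypomorph replicate 2 and lost without any other array (adjusted p = 0.129 to 0.235). Fat cells express Me1, and their markers rose beside it, 7 of 7 without the 2 that passed the filter only through hypomorph arrays. Enterocyte markers rose in the same arrays, and the part of either was not tested.

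Of the metallothioneins, cysteine-rich proteins that bind zinc and scavenge radicals, 1 of 2 tested fell. Mt2 fell to 2346 and 2396 in hypomorph, against 4304 and 4112 in wildtype (difference -0.82, SE 0.071, adjusted p = 0.00019), and its call held when any 1 array was left out. Mt1 was at 4564 and 4628 against 5711 and 5176 and was not called (-0.24, adjusted p = 0.0826). Both genes were lower on both hypomorph arrays.

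In a broad list of other NRF2 targets, partners and oxidative stress genes, 1 of 30 tested genes was called lower and 0 higher. It was Trp53inp1, a p53 target with antioxidant activity, at 3184 and 3108 in hypomorph and 3995 and 3841 in wildtype (-0.31, SE 0.068, adjusted p = 0.0378). Its other, dimmer probe set overlapped between groups and was not called (-0.07, adjusted p = 0.871 in limma). The call was lost without hypomorph replicate 1 (adjusted p = 0.0519), wildtype replicate 1 (0.219) or wildtype replicate 2 (0.133). Of 10 tested other oxidase genes 1 was called lower, Ncf4, a subunit of the phagocyte NADPH oxidase, at 67.5 and 101 against 162 and 171 (-0.79, SE 0.185, adjusted p = 0.049). That call was kept without hypomorph replicate 2 only, with adjusted p = 0.133 to 0.198 without the others, and lost with a pseudocount of 1 (0.0557). Macrophages also use this oxidase. Of their 9 tested markers 1 was called higher and 0 lower, and 4 had negative differences. No neutrophil marker was bright enough to test. The part of these cells was not tested.

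**Figure D3:**
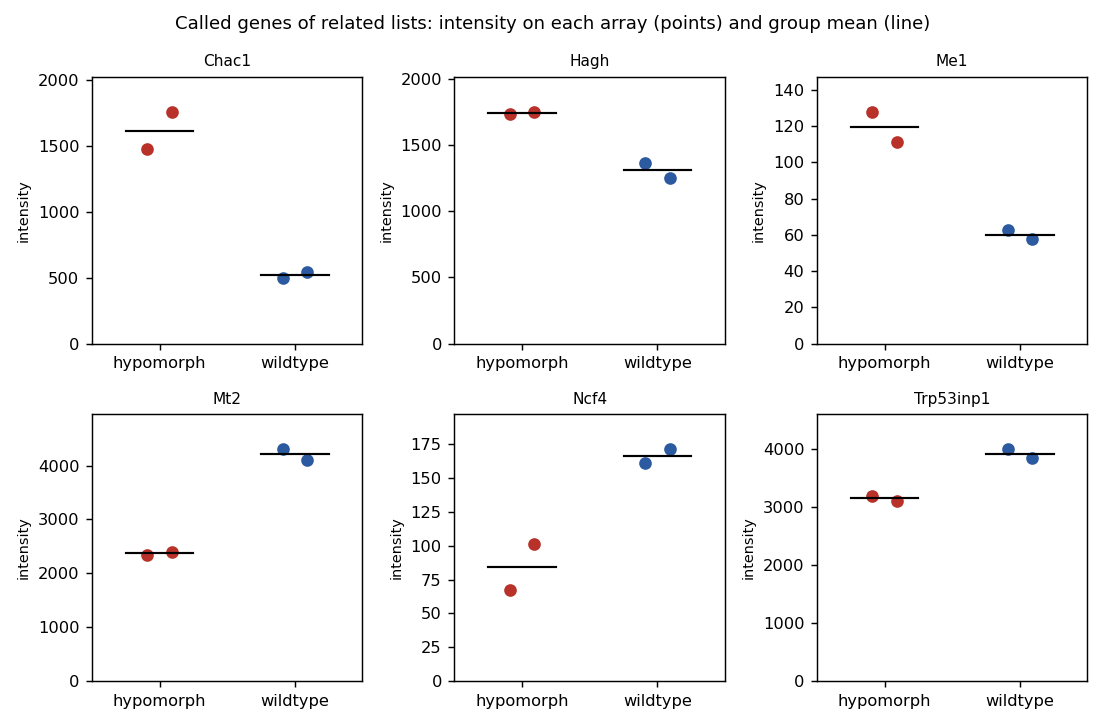
Deposited intensity (linear axis from 0) on each array for the 6 called genes of the related lists, hypomorph left and wildtype right, with group means as lines. Chac1, Hagh and Me1 were higher on both hypomorph arrays, and Mt2, Ncf4 and Trp53inp1 were lower on both.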

How the data were processed

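Total RNA of laser-captured Paneth cells was extracted, amplified and labelled with biotin for 1-colour arrays, per the labels' protocols. The authors deposited a linear intensity per probe set and array. How they summarised, background-corrected and scaled it is not given in the sources. Trimmed means differed by a factor of at most 1.02, so no normalisation was added, and depth is not defined for arrays, whose number limits the precision. Of 45101 probe sets 64 controls were left out. Of the others 34945 carried 1 symbol in the platform annotation, 932 several and 9160 none. Intensities were tested as log2(intensity + 32) from the deposited values. Probe sets at or above the median mean log2 value over all arrays (6.32) were kept, which left 22519.

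Hypomorph and wildtype were compared in limma 3.58.1 (R 4.3.3) with lmFit and eBayes with an intensity trend, on 2 residual and 7.81 prior degrees of freedom. Adjustment was Benjamini-Hochberg over all tested probe sets, two-sided, called at an adjusted p under 0.05. Each gene took the values of the probe set with the highest mean over all arrays. The procedure was tested on simulated data. Members, lists and the rule for named genes (all members, and of each other list the called genes or the 2 with the smallest unadjusted p) were chosen with earlier results of these data known. Counts over all member probe sets, the promoter search and the gene order around members were added afterwards. Promoter windows and gene symbols came from RefSeq tables (GRCm38.p6). The alternatives were other normalisations, pseudocounts, filters and priors, averaging of probe sets per gene, the replicate number as a block, and each array left out in turn. Fits without an array kept the probe sets that passed the filter on all arrays.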

Additional observations from a re-analysis of the deposited data

How the results depend on the processing

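The counts called differed with several choices. Genes among the members called higher numbered 2 as reported, and 1 with median centring, with a stricter brightness filter, with no intensity trend and with probe sets averaged per gene, where 2 were called lower (Nfe2l2 and Gsr). With no filter on dim probe sets 0 members were called by limma in either direction. Member probe sets called higher and lower numbered 1 and 3 with median centring, 0 and 1 with no filter, 1 and 1 with the stricter filter, and 1 and 2 with no intensity trend. Called genes of the related lists numbered 6 as reported and 2 with no filter or no trend. Over all probe sets 183 higher and 120 lower were called with no filter, 192 and 131 with no trend, and 244 lower with the stricter filter.

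The replicate numbers pair samples only by number. Deviations of same-numbered arrays from their group means correlated at 0.264 across probe sets. With the replicate number as a block, members called were 4 higher and 1 lower (Cat, Duoxa2, Glrx2, Gpx2 and Nfe2l2), member probe sets 6 and 6, genes of related lists 18, and all probe sets 1489 higher and 1717 lower.

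Without each array in turn, members called higher ranged from 0 to 2 and lower stayed at 0, member probe sets from 0 to 2 and from 2 to 4, genes of related lists from 2 to 6, and all probe sets from 302 to 696 higher and from 192 to 897 lower, both highest without hypomorph replicate 2. Only uncalled genes changed sign among members by brightest probe set. Without each array in turn the log2 differences ranged from -0.286 to 0.08 for Gclc, from -0.317 to 0.007 for Gclm, from -0.003 to 0.093 for Glrx, from -0.063 to 0.148 for Gpx1, from -0.155 to 0.215 for Gpx3, from -0.058 to 0.11 for Gpx4, from -0.061 to 0.002 for Keap1, from -0.067 to 0.006 for Msra, from -0.128 to 0.055 for Nfe2l1, from -0.13 to 0.012 for Prdx2, from -0.199 to 0.072 for Prdx3, from -0.039 to 0.002 for Txn1, from -0.144 to 0.208 for Txn2, from -0.222 to 0.103 for Txnip and from -0.116 to 0.102 for Txnrd1. With quantile normalisation Txn1 was at 0.043 and Txnrd1 at 0.005. With probe sets averaged Gsr was at -0.54, Prdx2 at 0.145, Txn1 at 0.003 and Txnrd2 at -0.085. The cause of these changes was not tested.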

Other observations

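Some probe sets are annotated to a listed gene together with another and were not counted. Of 3 annotated to both Ftl1, the ferritin light chain, and its pseudogene Ftl1-ps2, 1 rose to 1232 and 1352 in hypomorph, against 663 and 855 in wildtype (difference 0.75, SE 0.131, adjusted p = 0.0136 in limma). Another read 1575 and 1906 against 1579 and 1757 (0.06), and the third was too dim to test. The 5 annotated to both Prdx1 and Gm21399 gave differences of -0.04 to 0.02, the brightest at 10134 and 10490 in hypomorph and 10591 and 10640 in wildtype.

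Among iron handling genes 0 of 15 tested were called (limma), with a median of 0.043. The smallest unadjusted p belonged to Slc40a1, the iron exporter ferroportin, at 719 and 809 in hypomorph and 601 and 548 in wildtype (0.39, adjusted p = 0.112), followed by Slc11a1, a metal transporter of phagosomes (0.44, adjusted p = 0.123). Of 16 tested selenoprotein and selenium genes 0 were called, led by Selenow at 6334 and 6221 against 5523 and 5625 (0.17, adjusted p = 0.131) and Scly (0.32, adjusted p = 0.263). Of 22 tested thioredoxin-fold and methionine sulfoxide reductase genes 0 were called, led by Txndc5 at 2762 and 3199 against 3464 and 3819 (-0.29, adjusted p = 0.109) and Txndc17 (0.18, adjusted p = 0.225).

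Around Duoxa2 on chromosome 2, 4 of the 40 nearest tested genes were called (Tubgcp4, B2m, Spata5l1 and AA467197), 1 higher and 3 lower, beside 4.23% of all tested genes. Around Cat, on the same chromosome, 1 of 40 was called, the surface receptor gene Cd44, which was lower.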
